A study of Mus musculus with 18 samples.

Results

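Tolerance to lipopolysaccharide (LPS), the outer-membrane glycolipid of Gram-negative bacteria, was described in peritoneal macrophages of Zeb1WT mice by comparing the 3 RNA-seq libraries of mice given LPS on both days (LPS + LPS) with the 3 libraries of mice given vehicle and then a single dose of LPS (LPS). The labels alone chose these 6 of the 18 libraries of the series, and no measured value entered the choice. Both groups were Zeb1f/f mice on the C57BL/6 background, which carry the floxed Zeb1 allele without a Cre, and both received LPS as the last injection, so that they differ in what was given the day before. Cells were taken by peritoneal lavage and sorted on CD11b and on the macrophage antigen that Adgre1 encodes, and each library came from a pool of 2 to 3 mice. The other 12 libraries, Zeb1∆M (Zeb1f/f LysM Cre, a Cre driven from a gene of myeloid cells) in LPS and LPS + LPS and both genotypes in LPS after metformin, served to estimate the spread between replicates and, for Zeb1∆M, to ask whether a change was particular to Zeb1WT. Age, sex and the hour of collection for these libraries were not found in the sources used here. Unstimulated macrophages were not analysed here, so no value tells how far a gene was induced. Nor was there a group given LPS and then vehicle. What remained from the first dose and a changed answer to the second therefore cannot be told apart.

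LPS is handed by LBP and CD14 to TLR4 with MD-2, and from there MYD88 leads to NF-kB, AP-1 and the early cytokine genes, while TRIF leads to IRF3 and interferon-β, whose receptor leads to the interferon-stimulated genes. A macrophage that has met LPS once answers a second dose with less of some of these products, the state known as endotoxin tolerance, while other genes keep their response or give more. The question of the comparison was therefore which genes stood lower, at the same level or higher after the second dose.

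Of 13443 genes with enough counts, 2421 (18%) were lower and 2504 (18.6%) higher in LPS + LPS at an adjusted p under 0.05, and 3087 (23%) were kept, which here means not called and with the whole 95% interval of the fold change within 2-fold. The other 5431 genes (40.4%) were neither called nor bounded that tightly. These shares of all genes are the background for the counts of each list. The lists and their members were chosen with earlier results of these data known, so the counts describe them and test nothing. A change of at least 2-fold was seen in 1696 of the lower and 1786 of the higher genes, and a change of at least 16-fold in 241 and 181. The libraries of the groups did not overlap for 6315 genes (47%), among them 2313 of the lower and 2336 of the higher genes. Within LPS the libraries correlated at 0.957 to 0.969 and within LPS + LPS at 0.942 to 0.949, across genes, against 0.856 to 0.880 between the groups. The text gives levels as CPM, counts scaled to a common library total, in the order of replicates 1, 2 and 3, and changes as the log2 of LPS + LPS over LPS with the standard error (SE) or the 95% interval. A signed value alone in parentheses is such a log2 fold change.

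The lower genes took up 60.3 to 63.8% of the reads of the LPS libraries and 28.8 to 30.1% of those of the LPS + LPS libraries. The higher genes went from 5.38 to 6.42% of the reads to 21.7 to 24.0%. Scaling matters for this reason: with TMM factors, which assume that most genes do not change, the median log2 fold change over all genes was 0.08, and with library size alone it was 0.73. With library size alone 1176 genes were lower and 5337 higher, so that lower genes made up 18.1% of the calls in place of 49.2%. Changes are given on the TMM scale. Of the genes named in the text 14 lost their call with library size alone: Acod1, Clec4e, H2-Ob, Hif1a, Insig1, Mcm6, Mki67, Pfkfb3, Ptges, Relb, Retnla, Slc7a8, Sqstm1 and Tlr4. Another 15 that were not called on the TMM scale were then called higher, at 0.61 to 1.18 on the log2 scale: Cd68, Cxcl16, H2-Aa, H2-Eb1, Irak1, Irak4, Irf3, Jun, Ldha, Mertk, N4bp1, Sdha, Slc2a1, Tnf and Tnip1. The libraries held 17296835 to 22774325 counts in LPS and 16753562 to 22157057 in LPS + LPS.

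Macrophage markers were well expressed in all 6 libraries. Adgre1, the gene of that antigen, stood at 2078, 2771 and 1776 CPM in LPS and 1743, 1738 and 1828 in LPS + LPS (log2 fold change -0.32, 95% interval -0.77 to 0.13), and CD11b, Itgam, at 850.1, 953 and 712 and 887, 737 and 454 (log2 fold change -0.27, 95% interval -0.84 to 0.29). Both sorting markers were thus kept, with overlapping libraries. Cd68 and the efferocytosis receptor gene Mertk were kept as well, though Mertk was called higher without replicate 3 of LPS + LPS (0.64, edgeR adjusted p = 0.0471). Of the 10 pan-macrophage markers 2 were lower, the lysozyme gene Lyz2 and the IgG receptor gene Fcgr1, and 2 higher, among them the transcription factor gene Spi1. Lyz2, the gene that drives LysM-Cre in the other genotype, went from 39718, 51947 and 42735 to 19754, 11269 and 15508 CPM (-1.53, SE 0.36).

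Markers of other cells moved between the groups as well. Of 14 B cell genes 10 were lower and none higher, and their summed level was 767 to 1023 CPM in LPS and 276 to 345 in LPS + LPS. Ms4a1, which encodes CD20, was measured at 45, 37 and 47.2 CPM against 4.01, 5.19 and 3.32. Of 23 neutrophil markers 12 were higher and 3 lower, with a summed level of 4571 to 4964 CPM in LPS and 3456, 8534 and 5774 in LPS + LPS, while the defining gene Ly6g stayed at or under 1.61 CPM in every library. Replicate 1 of LPS + LPS had the lowest level of its group for 22 of these 23 neutrophil markers. Of 6 eosinophil genes 1 was lower, Alox15, which resident macrophages also express, and 1 higher, and Siglecf and Ccr3 overlapped between the groups. The summed level of the eosinophil list was 3024 to 4780 CPM in LPS and 138 to 680 in LPS + LPS. Of 5 mast cell and basophil genes 1 was lower and 4 were unresolved. That list summed to 1408 to 1658 CPM in LPS and 97.6 to 382 in LPS + LPS. Its lowest log2 fold change, -2.55869, is also the lowest of the neutrophil list. How far a single gene carries these sums was not tested. Of 7 T and NK cell genes 3 were lower and none higher. In sorted bulk samples fewer cells of a type and less RNA per cell cannot be told apart, and the part of other cells in the results that follow was not tested.

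**Figure D1:**
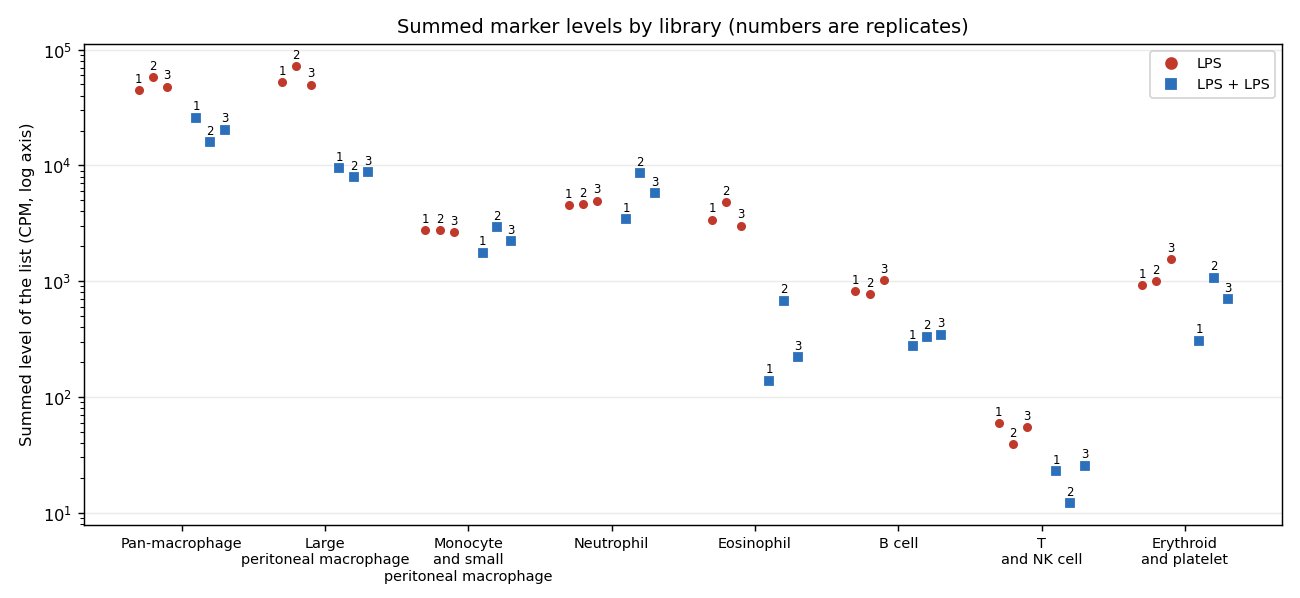
Summed level of marker lists (CPM, log axis) in each of the 3 LPS and 3 LPS + LPS libraries, numbered by replicate. Mast cell and basophil markers are not shown. B cell markers sum to 767 to 1023 CPM in LPS and 276 to 345 in LPS + LPS, and the neutrophil sum is lowest in replicate 1 of LPS + LPS (3456 CPM) and highest in replicate 2 (8534).

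All 36 tested interferon-stimulated genes of the list were lower in LPS + LPS, with a median log2 fold change of -4.02, against 0.08 over all genes tested and a background of 18% of genes called lower. As the members were chosen with earlier results of these data known, this count describes the list and is no test. Ifit2, which binds viral RNA and slows its translation, had the largest fall among called genes with a mean of at least 3 on the log2 CPM scale and no overlap, with 1134, 1658 and 1981 CPM in LPS and 4.19, 6.15 and 5.77 in LPS + LPS (log2 fold change -8.21, SE 0.60, adjusted p = 1.2e-08). Rsad2, the antiviral radical enzyme viperin, went from 4491, 6036 and 4950 to 19.7, 47.9 and 21.1 CPM (log2 fold change -7.45, SE 0.46, adjusted p = 1.8e-09). Mx1, a dynamin-like GTPase against influenza viruses, which the file types as a polymorphic pseudogene, went from 769.7, 1040 and 808 to 6.93, 5.88 and 2.76 CPM (log2 fold change -7.40, SE 0.38, adjusted p = 3.6e-10). In each of these genes every LPS + LPS library lay more than an order of magnitude below every LPS library. The smallest change of the list was that of Bst2, which tethers virions to the cell surface (203, 183 and 255 against 63.7, 94.2 and 45 CPM, -1.66).

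Ifih1 (MDA5) and Ddx58 (RIG-I), which detect long and 5′-triphosphate RNA, changed by -4.06 and -4.07 on the log2 scale, and Tlr3, the receptor for double-stranded RNA in endosomes, by -5.38. Isg15, a ubiquitin-like modifier, went from 209.6, 253 and 403 to 17.6, 18.6 and 10.1 CPM, and Usp18, which removes it and damps the interferon receptor, from 1683, 2152 and 2200 to 62.2, 113 and 70.4. Neither the modifier nor its protease overlapped between the groups. Cmpk2, Oasl1 and Phf11d, all among the 20 largest falls, stood at 1.1, 2.7 and 3.79% of their LPS mean.

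The 15 guanylate-binding proteins and immunity-related GTPases, which attack vacuoles holding bacteria and parasites, were all lower too (median -3.05). Gbp9 went from 497, 707 and 691 to 40.0, 23.1 and 27.4 CPM (log2 fold change -4.39, SE 0.30, adjusted p = 6.8e-09), and Iigp1 from 1866, 2588 and 2205 to 208, 20.3 and 99.3 (log2 fold change -4.34, SE 0.57, adjusted p = 1.1e-05). Replicate 1 of LPS + LPS had the highest level of its group in 15 of 15 of these genes, so that the remaining level differs between pools. Without that library the median of the list was -3.69, and 15 of 15 were still called lower. With library size alone it was -2.42, and 14 of 15 were lower.

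Promoters of 9733 of the 13431 distinct gene symbols tested were found in RefSeq (GRCm38.p6), each 300 bases long with 250 before and 50 after the start of transcription. The interferon-stimulated response element, searched as GAAANNGAA on both strands, was present in 7.74% of all these promoters, in 12.4% of those of lower genes, 5.87% of higher and 7.49% of kept genes, in 24.1% of those that fell at least 16-fold and in 10.2% of those that rose at least 16-fold. Among the lists it was found in 17 of 26 promoters of interferon-stimulated genes (65.4%) and in 9 of 9 of the guanylate-binding protein list (100%). The lists name known interferon targets, so these shares describe them and test nothing. The promoters below are shown because they belong to the 3 lower interferon-stimulated genes or chemokines with the smallest adjusted p that hold the element, written 5′ to 3′ on the gene's strand with matches in capitals.
Ifih1, chr2:62646206-62646505, minus strand, lower: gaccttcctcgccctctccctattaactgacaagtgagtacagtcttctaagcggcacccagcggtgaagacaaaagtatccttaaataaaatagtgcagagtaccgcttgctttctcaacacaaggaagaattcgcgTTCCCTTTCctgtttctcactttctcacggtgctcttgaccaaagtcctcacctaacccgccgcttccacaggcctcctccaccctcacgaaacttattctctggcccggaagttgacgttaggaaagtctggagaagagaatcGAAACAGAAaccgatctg
Rsad2, chr12:26456403-26456702, minus strand, lower: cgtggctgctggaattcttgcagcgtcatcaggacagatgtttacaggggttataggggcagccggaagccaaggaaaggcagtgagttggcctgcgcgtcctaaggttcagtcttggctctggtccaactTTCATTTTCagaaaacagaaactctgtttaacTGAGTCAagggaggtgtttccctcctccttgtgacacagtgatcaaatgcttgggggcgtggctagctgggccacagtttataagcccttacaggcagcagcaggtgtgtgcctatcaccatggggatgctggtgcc
Trim30a, chr7:104465144-104465443, minus strand, lower: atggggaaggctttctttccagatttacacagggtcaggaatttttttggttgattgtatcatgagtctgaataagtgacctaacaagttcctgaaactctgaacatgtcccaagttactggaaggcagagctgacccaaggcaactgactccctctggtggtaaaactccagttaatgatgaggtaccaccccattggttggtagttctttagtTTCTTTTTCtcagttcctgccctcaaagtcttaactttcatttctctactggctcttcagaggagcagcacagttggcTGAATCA

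The capitals mark the element at 112 bases before and 33 bases after the start of Ifih1, at 119 bases before that of Rsad2 and at 35 bases before that of Trim30a, a restrictor of TLR signalling. A second run in Rsad2, 87 bases before its start, and one in Trim30a, 44 bases after, match the AP-1 motif TGANTCA, which was in 5.22% of all promoters, 6.85% of those of lower and 5.26% of those of higher genes. It was in 11.4% of those that fell and 12.5% of those that rose at least 16-fold. A match is only these letters in this window and was not tested for binding.

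Cytokines split more than interferon targets did. Of 26 tested, 17 were lower, 4 higher, 1 kept and 4 unresolved, with a median of -1.86. Il6, the cytokine of fever and the acute phase, went from 121, 128 and 111 CPM to 6.27, 17.6 and 9 (log2 fold change -3.45, SE 0.35, adjusted p = 4.8e-07), with no overlap. Il1a, an alarmin made as a precursor in the cell, went from 1956, 2719 and 1769 to 307, 412 and 567 (log2 fold change -2.32, SE 0.36, adjusted p = 5.3e-05). A larger fall was that of Il15, which sustains NK cells (102, 146 and 119 against 1.28, 1.22 and 0.502 CPM, -6.94). The death ligand gene Tnfsf10 (-7.02) and Il27, whose protein restrains T cells (-3.55), fell too. The anti-inflammatory members fell as well: Il10 from 86.5, 90.5 and 92.5 to 11.6, 33.1 and 42.6 CPM (log2 fold change -1.63, SE 0.34, adjusted p = 0.00094) and the receptor antagonist gene Il1rn from 9972, 10691 and 9987 to 2017, 3440 and 3385 (log2 fold change -1.79, SE 0.32, adjusted p = 0.00026).

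Tnf, an early cytokine of the LPS response, was kept with TMM scaling and called higher with library size alone (0.64, edgeR adjusted p = 0.0192). It was measured at 114, 134 and 111 CPM in LPS and 145, 122 and 88.6 in LPS + LPS (log2 fold change -0.01, 95% interval -0.40 to 0.37), with overlapping libraries, and this interval, on the TMM scale, lies within 2-fold. Il1b, whose protein needs the inflammasome, stood at 778, 954 and 548 and 331, 1033 and 454 CPM (log2 fold change -0.33, 95% interval -1.06 to 0.41). It was not called, and its interval is too wide to call it kept, but without replicate 2 of LPS + LPS it was called lower (-0.95, edgeR adjusted p = 0.0262). Both subunits of interleukin-12, which drives interferon-γ in T and NK cells, were higher. Il12a stood at 1.57, 1.32 and 3.03 against 3.54, 20.3 and 25.3 CPM (log2 fold change 3.06, SE 0.66, adjusted p = 0.0014). Il12b stood at 6.32, 9.33 and 9.39 against 9.77, 23.1 and 19.6 CPM (log2 fold change 1.07, SE 0.28, adjusted p = 0.0064), a call lost with the 6 libraries alone (edgeR adjusted p = 0.0523). In Il12a replicate 1 of LPS + LPS lay well below the other replicates and close to the highest LPS library. Ebi3, the partner of Il27 in the cytokine IL-27, was higher too (0.73, adjusted p = 0.013) while Il27 was lower. The call of Ebi3 was lost with the replicate number as a block (0.68, edgeR adjusted p = 0.0655). It was also lost with each library's trend on transcript GC removed (0.57, edgeR adjusted p = 0.0546). Edn1, a vasoconstrictor peptide, stood at 66.8, 66.4 and 37.3 against 222, 134 and 146 CPM (log2 fold change 1.56, SE 0.24, adjusted p = 7e-05). Ifnb1, the gene of interferon-β, did not pass the filter on low counts and was not tested.

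The promoter of Tnf is shown as that of a kept gene beside the lower ones.
Tnf, chr17:35201958-35202257, minus strand, kept: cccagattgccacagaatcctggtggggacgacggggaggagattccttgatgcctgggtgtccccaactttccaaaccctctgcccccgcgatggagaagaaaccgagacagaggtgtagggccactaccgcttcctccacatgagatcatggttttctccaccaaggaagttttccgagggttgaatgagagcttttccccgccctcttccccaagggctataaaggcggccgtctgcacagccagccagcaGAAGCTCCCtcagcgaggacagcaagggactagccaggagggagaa
It holds no match to the interferon element. Its capitals, from 5 bases after the start, match an NF-kB motif searched as GGGANNTTC on both strands, which was in 3.71% of all promoters, 4.38% of those of lower and 3.64% of those of kept genes.

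**Figure D2:**
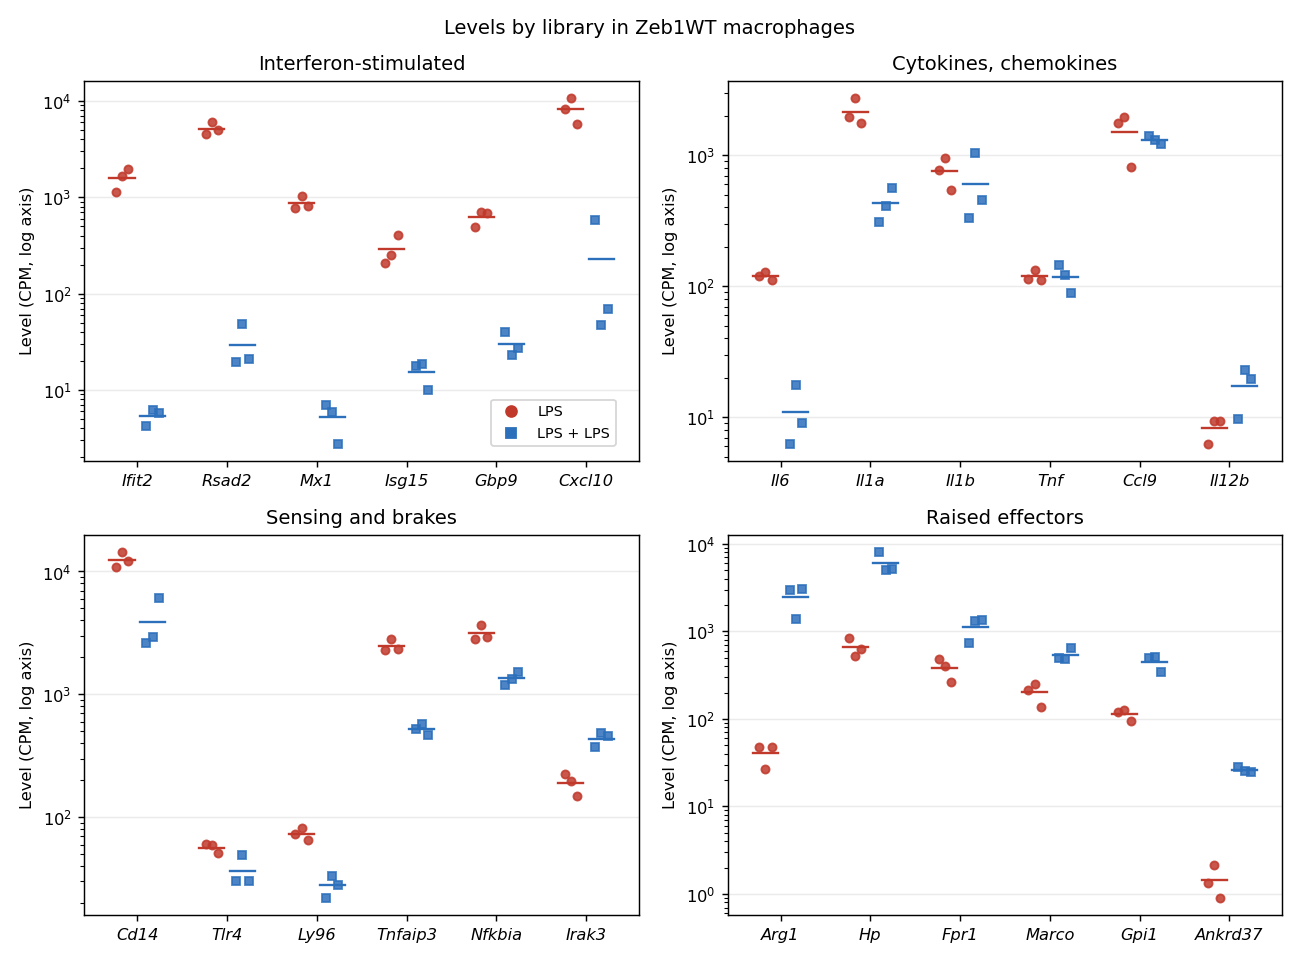
Levels (CPM, log axis) of 24 named genes in each of the 3 LPS libraries (circles) and 3 LPS + LPS libraries (squares), with the mean of each group as a line. Interferon-stimulated genes lie far apart, Tnf and Ccl9 overlap, and Arg1, Hp and Ankrd37 are higher in every LPS + LPS library.

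Among 24 chemokines 15 were lower, 2 higher, 3 kept and 4 unresolved (median -1.66). Cxcl10, an interferon-induced attractant of T cells, went from 8326, 10649 and 5726 to 575, 46.9 and 69.3 CPM (log2 fold change -5.16, SE 0.72, adjusted p = 2.2e-05), and here replicate 1 of LPS + LPS stood about an order of magnitude above the other replicates yet below every LPS library. Without that replicate the log2 fold change was -7.15. The neutrophil attractants Cxcl1 (1120, 1259 and 459 against 72.8, 85.3 and 70.0 CPM, -3.64) and Cxcl2 (-2.26) and the monocyte attractants Ccl2 (-1.65) and Ccl7 (-2.57) fell. Ccl24, an eosinophil attractant of alternatively activated cells, fell as well (259, 252 and 101.5 against 7.55, 7.91 and 8.72 CPM, log2 fold change -4.66, SE 0.40, adjusted p = 6.6e-08).

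Ccl6, Ccl9 and Cxcl16 were kept, 3 of 24 chemokines against 23% of all genes, and 1 of 24 without replicate 3 of LPS or replicate 1 of LPS + LPS. Ccl6 stood at 2019, 2958 and 1201 and 1395, 2561 and 1777 CPM (log2 fold change -0.11, 95% interval -0.98 to 0.76). Ccl9 stood at 1768, 1973 and 808 and 1407, 1306 and 1224 CPM (log2 fold change -0.21, 95% interval -0.88 to 0.46), and the membrane-bound Cxcl16 at 165, 183 and 185 and 226, 148 and 223 (log2 fold change 0.16, 95% interval -0.23 to 0.55). All 3 overlapped between the groups, and with library size alone Cxcl16 was called higher (0.81, edgeR adjusted p = 0.000963). Ccl8 was higher (0.627, 1.22 and 3.58 against 8.75, 9.78 and 25.5 CPM, log2 fold change 3.04, SE 0.57, adjusted p = 0.00041). The platelet chemokine gene Ppbp had no count in LPS and 110 in LPS + LPS, at least 25.1-fold higher with a floor of 3 counts over the group.

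Of 18 genes of the receptor complex and its adaptors 9 were lower, 1 higher, 6 kept and 2 unresolved (median -0.68). These counts were 5 lower and 3 higher with library size alone, with a median of -0.04. Cd14, the coreceptor, went from 10868, 14399 and 12275 to 2624, 2916 and 6080 CPM (log2 fold change -1.69, SE 0.35, adjusted p = 0.0010). Ly96, which encodes MD-2, went from 73.5, 81.6 and 65.5 to 22.2, 33.5 and 28 (log2 fold change -1.40, SE 0.24, adjusted p = 0.00019). Lbp, which extracts LPS from micelles, fell most (79.5, 107 and 104 against 8.42, 12.1 and 6.74 CPM, -3.42), and Myd88 fell from 711, 771 and 667 to 284, 219.9 and 219. Tlr4 itself stood at 60.0, 59.3 and 50.7 and 30.4, 49 and 30.1 CPM (log2 fold change -0.64, SE 0.21, adjusted p = 0.024), a change that is gone with library size alone (0.03). Its call was lost without any 1 of 4 libraries, replicates 1 and 2 of LPS and replicates 1 and 3 of LPS + LPS, where edgeR's adjusted p reached 0.10. The kinase and adaptor genes further down, Irak4, Irak1, Ticam1, Tirap, Traf3 and Map3k7, were kept on the TMM scale. With library size alone Irak1 (0.86) and Irak4 (0.77) were called higher, and without replicate 3 of LPS + LPS Tirap was called lower (-0.75, edgeR adjusted p = 0.0131). Ticam2, which links TLR4 to TRIF, was higher (8.96, 4.01 and 5.33 against 44.3, 22.1 and 29 CPM, log2 fold change 2.38, SE 0.38, adjusted p = 7.4e-05).

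The brakes of TLR signalling did not move as a block. Of 30 genes 18 were lower, 3 higher, 3 kept and 6 unresolved (median -1.22), or 12 lower and 7 higher with library size alone (median -0.56). Irak3, which encodes IRAK-M, a kinase-dead member of its family that holds back MYD88 signalling, was higher (226, 195 and 148 against 370.4, 481 and 454 CPM, log2 fold change 1.20, SE 0.17, adjusted p = 2.8e-05). So was Inpp5d, the lipid phosphatase SHIP1 (43.8, 39.3 and 54.4 against 118, 109 and 88.8, log2 fold change 1.20, SE 0.26, adjusted p = 0.0012). None of their libraries overlapped. Among the lower members, Tnfaip3, which encodes the deubiquitinase A20, went from 2296, 2818 and 2346 to 519, 575 and 466 CPM (log2 fold change -2.26, SE 0.26, adjusted p = 2e-06). Nfkbia, which encodes the NF-kB inhibitor IkBα, went from 2807, 3681 and 2944 to 1186, 1326 and 1527 CPM (log2 fold change -1.22, SE 0.28, adjusted p = 0.0023). Socs3, Zfp36, Nfkbiz and Rgs1 also fell. Tollip, Tnip1 and N4bp1 were kept on the TMM scale, N4bp1 not without replicate 1 of LPS + LPS (0.54, edgeR adjusted p = 0.0458). The phosphatase gene Dusp1 was unresolved, since replicate 3 of LPS + LPS (3390 CPM) lay among the LPS libraries and replicates 1 and 2 did not. Without replicate 3 it was called lower (-1.44, edgeR adjusted p = 0.0067).

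Transcription factor genes of the pathway were lower in 17 of 20 cases, with 1 higher and 2 kept (median -1.41). Irf7, the amplifier of type I interferon, went from 2174, 2617 and 2958 to 186, 399 and 182 CPM (log2 fold change -3.34, SE 0.33, adjusted p = 4.3e-07). Stat2, a factor of the interferon receptor, changed by -3.07, while Irf3, which acts without new synthesis, was kept (log2 fold change 0.53, 95% interval 0.06 to 0.99) but called higher without replicate 1 of LPS + LPS (0.71, edgeR adjusted p = 0.0193). All 5 NF-kB subunit genes (Rel, Rela, Relb, Nfkb1, Nfkb2) were lower, by 0.82 to 1.42 on the log2 scale, that of Relb not without replicate 2 of LPS (edgeR adjusted p = 0.0525). Stat6, the factor of interleukin-4 signals, was the exception and was higher (102, 85.4 and 94.5 against 177, 190.1 and 197 CPM, log2 fold change 1.00, SE 0.19, adjusted p = 0.00039). Of 20 immediate early genes 5 were lower, 2 higher, 5 kept and 8 unresolved, with a median of -0.18 that was 0.49 with library size alone. Fos, Jun, Egr1 and Egr2 were among the kept, whose number was 1 to 3 with any 1 library left out. Fos stood at 151, 187 and 134 and 89.1, 146 and 151 CPM (log2 fold change -0.29, 95% interval -0.94 to 0.36). Klf2, a factor of quiescence, was unresolved, since replicate 3 of LPS and replicate 1 of LPS + LPS stood far above the others (17.5, 21.2 and 158 against 443, 35.5 and 15.7 CPM). Without that LPS library it was called higher (3.09, edgeR adjusted p = 0.0349).

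**Figure D3:**
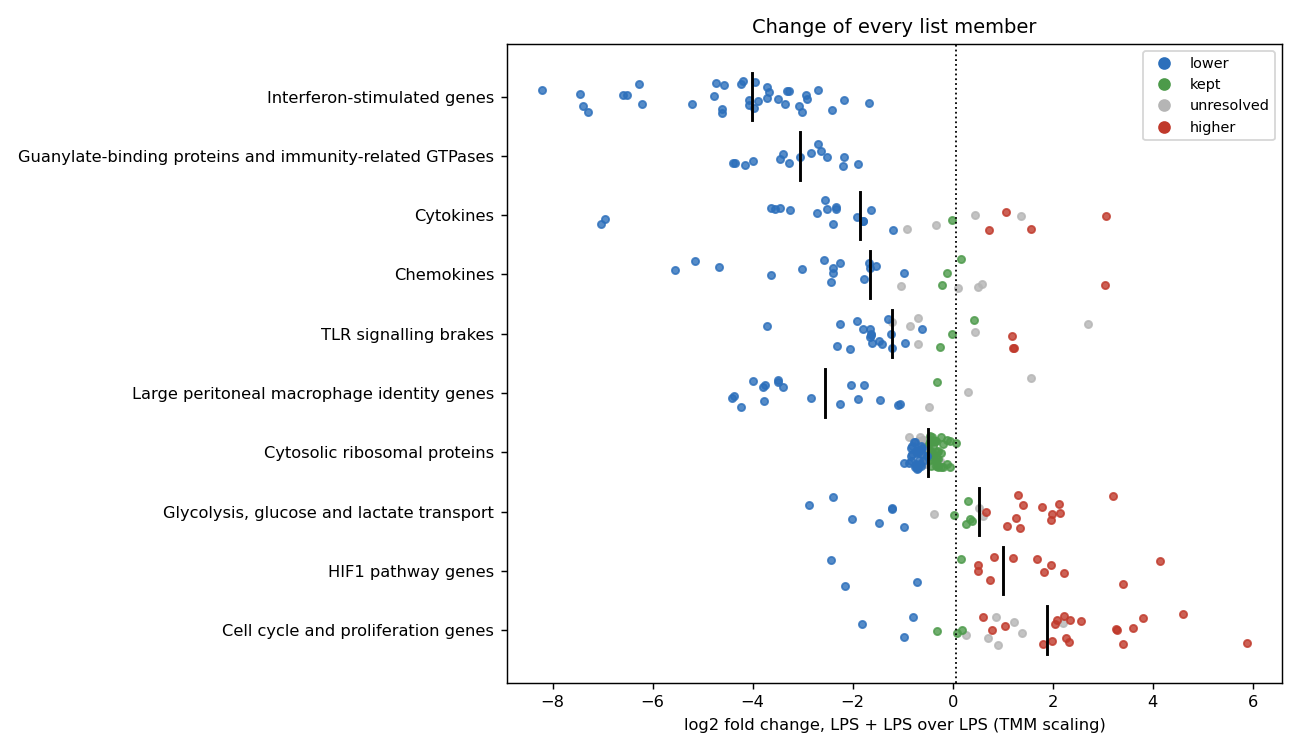
Log2 fold change (LPS + LPS over LPS, TMM scaling) of every member of 10 lists, coloured by result, with the list median as a black line and the median of all genes (0.08) dotted. Members without a count in one group are left out. All 36 interferon-stimulated genes lie left of -1.65, while cytokines reach from -7.02 (Tnfsf10) to 3.06 (Il12a). The lists were chosen with earlier results of these data known.

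Of 19 genes of MHC class I and the immunoproteasome 17 were lower and none higher (median -1.48), among them the peptide transporter gene Tap1 (998, 1100 and 1089 against 360.1, 137 and 179 CPM, log2 fold change -2.24, SE 0.30, adjusted p = 1.3e-05) and the catalytic subunit gene Psmb9 (-1.55). The lower members of this list numbered 11 with library size alone (median -0.84). Of 13 class II genes 2 were lower (H2-DMb2 and H2-Ob, both typical of B cells), 1 higher and 2 kept, and 8 were unresolved. Of all genes 18% were lower, 18.6% higher and 23% kept. The call of H2-Ob was lost without replicate 3 of LPS or replicate 2 of LPS + LPS (edgeR adjusted p = 0.0545 and 0.074) and with library size alone, where 1 class II gene was lower and 5 were higher. H2-Aa stood at 976, 944 and 771 and 1308, 631 and 1087 CPM (log2 fold change 0.17, 95% interval -0.56 to 0.90) and H2-Eb1 at 860.0, 798 and 695 and 1263, 587 and 920.3. Costimulation and maturation genes were lower in 13 of 18 cases, with 2 higher (median -2.10). Cd86 went from 425, 504 and 497 to 48.1, 33.3 and 92.1 CPM (log2 fold change -3.04, SE 0.37, adjusted p = 4.6e-06). Cd40 changed by -2.62, Cd83 by -3.31 and the checkpoint ligand gene Cd274 (PD-L1) by -2.51. The checkpoint gene Vsir (VISTA) was higher (65.6, 60.8 and 35.6 against 127, 243 and 158 CPM, log2 fold change 1.70, SE 0.40, adjusted p = 0.0029). B cells also carry class II, Cd40, Cd83 and Cd86, and their part in these changes was not tested. The B cell list had medians of -2.32 in Zeb1WT and -0.09 in Zeb1∆M, and the costimulation list -2.10 and -1.89. In the test of the difference between the genotypes no gene of either list was called. Whether these medians bear on the part of B cells in Zeb1WT was not tested.

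Arg1, the enzyme that turns arginine into ornithine and urea, had the largest rise among called genes with a mean of at least 3 on the log2 CPM scale and no overlap. It was measured at 47.3, 26.9 and 48.1 CPM in LPS and 2973, 1372 and 3029 in LPS + LPS (log2 fold change 5.91, SE 0.44, adjusted p = 1.4e-08), a mean fold of 60.3. Every LPS + LPS library lay above every LPS library by more than an order of magnitude. Nos2, the nitric oxide synthase that uses the same arginine, was unresolved, with 586, 573 and 1427 and 2915, 692 and 371 CPM (log2 fold change 0.62, 95% interval -0.62 to 1.86), and replicate 1 of LPS + LPS far above its partners. Ass1, which regenerates arginine, was higher (18.3, 14.6 and 22.5 against 98.4, 72.5 and 68.4 CPM, 2.11). Acod1, which makes itaconate, stood at 4496, 6934 and 4081 and 3794, 1981 and 1617 CPM (log2 fold change -1.07, SE 0.31, adjusted p = 0.012), and without replicate 2 of LPS, or replicate 2 or 3 of LPS + LPS, edgeR's adjusted p was 0.0906, 0.0528 and 0.0601.

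On the prostaglandin side Ptgs2 (COX-2) fell from 1279, 1754 and 1465 to 119, 126 and 79.8 CPM (log2 fold change -3.79, SE 0.33, adjusted p = 8.2e-08). Ptgis, the prostacyclin synthase, fell from 157, 196 and 123 to 7.44, 4.62 and 8.94 CPM (-4.50), and Ptgs1 and Ptges fell too. On the leukotriene side Alox5ap (203, 246 and 184 against 346, 415 and 402 CPM, 0.88) and Lta4h (0.75) were higher, Ltc4s was kept and Alox5 was unresolved, though called lower without replicate 2 of LPS + LPS (-1.07, edgeR adjusted p = 0.00598). Of the whole list of 20 enzymes 9 were lower and 6 higher, or 6 and 6 with library size alone.

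Antimicrobial and acute-phase genes were higher in 12 and lower in 8 of 29 cases (median 0.50), or 16 and 5 with library size alone (median 1.16). Hp, haptoglobin, which binds free haemoglobin, went from 836, 525 and 626 to 8049, 4994 and 5202 CPM (log2 fold change 3.20, SE 0.30, adjusted p = 2.2e-07). Fpr1, the receptor for formyl peptides of bacteria, went from 477, 399 and 267 to 741, 1311 and 1330 (log2 fold change 1.57, SE 0.26, adjusted p = 0.00013). Marco, a scavenger receptor that takes up bacteria, went from 214, 252 and 138 to 493, 485 and 651 (log2 fold change 1.43, SE 0.28, adjusted p = 0.00055). None of these 3 overlapped. Lcn2, which starves bacteria of iron-bearing siderophores, was higher (698, 387 and 431 against 1848, 2974 and 888 CPM). So was the long pentraxin gene Ptx3 (12.5, 12.7 and 82.3 against 635, 133 and 108, log2 fold change 3.03, SE 0.77, adjusted p = 0.0048), with replicate 1 of LPS + LPS and replicate 3 of LPS the highest of their groups. Without that LPS + LPS library the log2 fold change of Ptx3 was 1.75 (edgeR adjusted p = 0.0504). Slpi, a protease inhibitor, fell from 4544, 4470 and 6614 to 464, 674 and 450.1 CPM (log2 fold change -3.30, SE 0.41, adjusted p = 5.1e-06), and the complement gene Cfb and the receptor genes Clec4d and Clec4e fell as well. Saa3, an acute-phase apolipoprotein, stood at 7739, 10402 and 14044 and 11367, 7560 and 6635 CPM and was not called. S100a8 (143, 66.4 and 151 against 279.9, 1294 and 1262 CPM) and S100a9 were higher but are also neutrophil markers, and they were highest in replicates 2 and 3 of LPS + LPS. Without replicate 2 that of S100a9 was no longer called (log2 fold change 1.46, edgeR adjusted p = 0.0551).

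Of 24 protease, clotting and matrix genes 9 were lower, 6 higher, 1 kept and 8 unresolved, with a median of -0.21 that was 0.43 with library size alone. Of all genes 18% were lower, 18.6% higher and 23% kept. Thbs1, a matrix protein of platelets and macrophages, fell from 20351, 26413 and 18123 to 1052, 1807 and 1204 CPM (log2 fold change -3.997, SE 0.33, adjusted p = 5.1e-08). The plasminogen activator inhibitor gene Serpinb2 fell from 7744, 13876 and 6721 to 587, 775 and 1152 CPM (-3.50). Tissue factor, F3, fell from 178, 251 and 204 to 28.7, 22.1 and 28.7 (-2.99) and the clotting factor gene F5 from 346, 374 and 472 to 30.0, 87.9 and 48.9 (-2.84). The transglutaminase gene F13a1 was higher (100.5, 37 and 26.5 against 566, 254 and 504 CPM, 3.01). The collagenase and gelatinase genes Mmp14, Mmp19, Mmp8 and Mmp9 were higher, of which Mmp8 and Mmp9 are also made by neutrophils.

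Identity genes of the resident large peritoneal macrophage were lower in 18 of 22 cases, 1 was kept and 3 were unresolved (median -2.54). Selp, the adhesion molecule P-selectin, went from 3993, 4800 and 3919 to 216, 203 and 178 CPM (log2 fold change -4.41, SE 0.24, adjusted p = 5.3e-10). Timd4, a receptor for phosphatidylserine on dying cells, went from 396, 563 and 451 to 35.4, 29.8 and 37.3 CPM (log2 fold change -3.78, SE 0.26, adjusted p = 7.4e-09). Prg4, a lubricating proteoglycan, went from 3031, 3972 and 4883 to 313, 251 and 298 (-3.79). None of these overlapped. Gata6, the factor that defines these cells, was poorly counted, at 3.85, 2.38 and 11 and 8.75, 0.802 and 2.82 CPM (log2 fold change -0.47, 95% interval -1.77 to 0.84), and its change was not resolved. Without replicate 1 of LPS + LPS it was called lower (-1.64, edgeR adjusted p = 0.0458). Of 18 genes of monocytes and small peritoneal macrophages 7 were lower and 6 higher, with a median of -0.38 that was 0.25 with library size alone. The monocyte chemokine receptor gene Ccr2 was higher (3.59, 2.59 and 2.24 against 29.1, 24.7 and 35.2 CPM, log2 fold change 3.39, SE 0.39, adjusted p = 2.1e-06). So were Ly6c2 (17.4, 8.26 and 11.6 against 23.8, 56.9 and 38.8, 1.68, lost without replicate 2 of LPS or of LPS + LPS with edgeR adjusted p = 0.0575 and 0.0593) and Cx3cr1 (0, 0 and 0.303 against 17.1, 1.95 and 1.29, carried mostly by replicate 1), while Irf4, Cd226 and Plac8 were lower. Less of a transcript per cell and a different mix of macrophages cannot be told apart here.

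**Figure D4:**
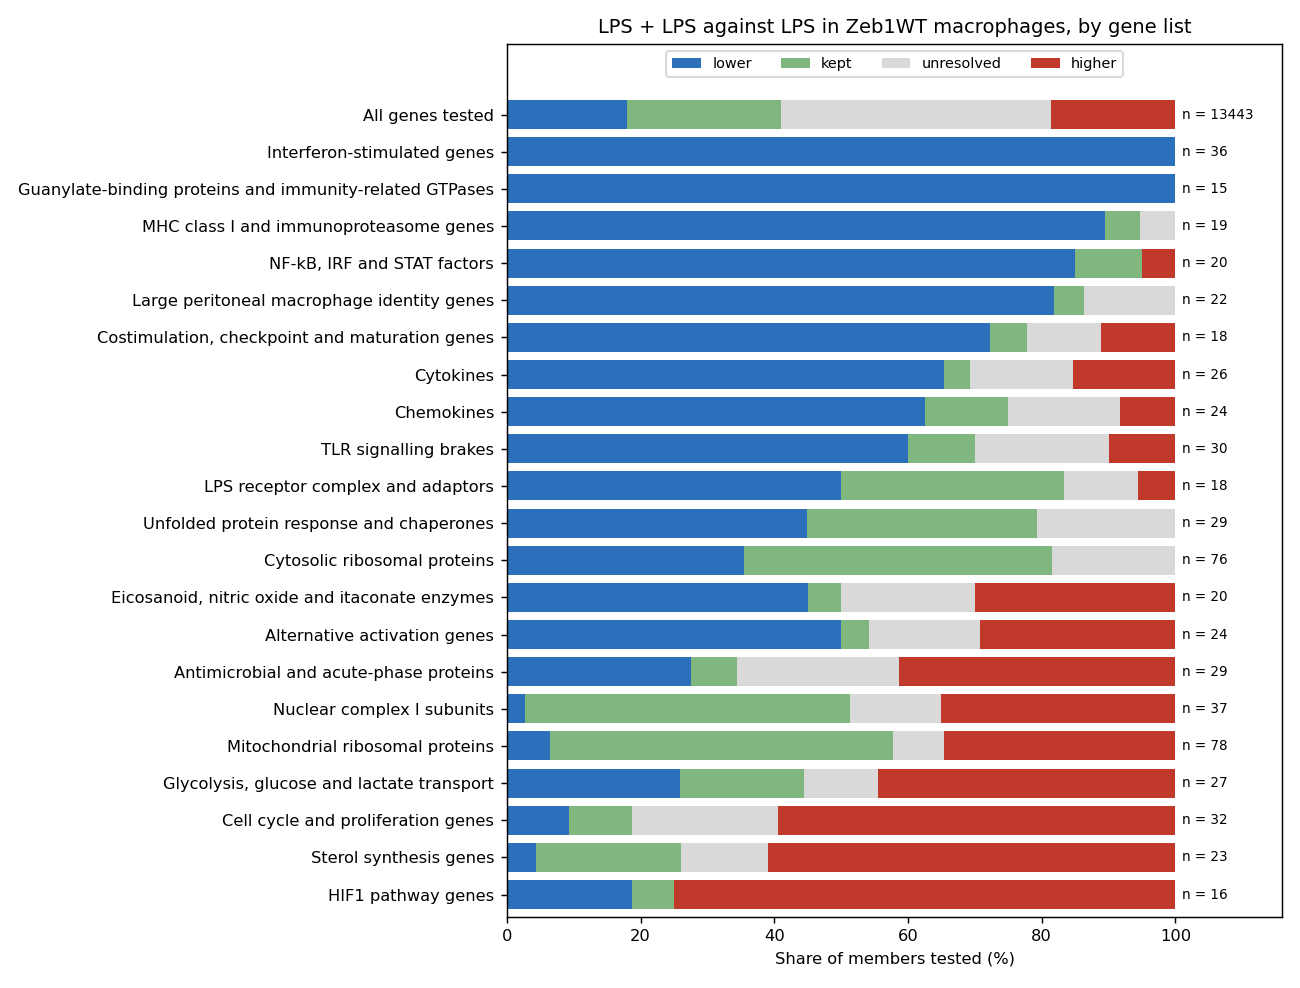
Share of the tested members of each list (%) that were lower, kept, unresolved or higher in LPS + LPS, with the number tested at the right and all 13443 genes tested in the top bar. Interferon-stimulated genes and guanylate-binding proteins are lower throughout, and the HIF1 list is higher in 12 of 16 genes. The lists were chosen with earlier results of these data known.

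Genes known as markers of alternative activation went both ways, 12 lower and 7 higher of 24, or 9 and 9 with library size alone. Beside Arg1, the chitinase-like gene Chil3 was higher (19.3, 8.26 and 19.5 against 311, 732 and 536 CPM, log2 fold change 5.07, SE 0.66, adjusted p = 9.4e-06). So were the mannose receptor gene Mrc1 (62.7, 49.5 and 34 against 198, 85.8 and 144, log2 fold change 1.55, SE 0.32, adjusted p = 0.0010) and the folate receptor gene Folr2 (3.43). Retnla, another standard marker, stood at 607, 704 and 346 and 52.8, 395 and 158 CPM (log2 fold change -1.45, SE 0.52, adjusted p = 0.035), with 1 LPS + LPS library inside the LPS range. Its call was lost without replicate 1 or 2 of LPS, or replicate 1 or 3 of LPS + LPS, with edgeR's adjusted p up to 0.118. Cd209a, a C-type lectin of monocyte-derived and dendritic cells, fell by more than any other called gene but Ifit2 among those with a mean of at least 3 on the log2 CPM scale and no overlap (463, 650.2 and 305 against 1.06, 2.1 and 4.33 CPM, log2 fold change -7.55, SE 0.75, adjusted p = 3.8e-07). Other dendritic cell genes fell with it, 4 of 7 in all, among them Zbtb46 and Ccr7. Receptors for dead cells also went both ways, 9 lower and 6 higher of 23, with a median of -0.14 that was 0.51 with library size alone. Of all genes 18% were lower and 18.6% higher. Axl (127, 138 and 234 against 13.7, 17.5 and 11 CPM, -3.56) and the bridging protein gene Mfge8 (-3.71) fell. Gas6, the ligand of Axl and Mertk, and the scavenger receptor genes Stab1 (9.77, 9.33 and 5.45 against 132, 68.5 and 71.3 CPM, 3.46) and Scarb1 were higher.

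Genes of glycolysis were higher in 12 and lower in 7 of 27 cases, and 5 were kept (median 0.53). These counts were 19, 4 and 1 with library size alone (median 1.17). Among the higher genes was the isomerase gene Gpi1 (119, 126 and 94.4 against 499, 506 and 339 CPM, log2 fold change 1.99, SE 0.19, adjusted p = 1.9e-07). The aldolase gene Aldoa rose too (536, 549.7 and 468 against 1158, 1326 and 1488 CPM, log2 fold change 1.35, SE 0.20, adjusted p = 3.2e-05), as did Tpi1, Pgk1, Pgam1 and Eno1, together with the lactate exporter gene Slc16a3 (147, 89.6 and 136 against 644, 503 and 481 CPM, 2.13). The hexokinase gene Hk2 (266, 339 and 304 against 100.9, 54.4 and 70.7 CPM, -2.01), Hk3, the lysosomal transporter gene Slc2a6 and the regulator gene Pfkfb3 (1028, 959 and 785 against 468, 402 and 335, -1.20) fell, Pfkfb3 not with library size alone (edgeR adjusted p = 0.0655). The glucose transporter gene Slc2a1 was kept (433, 315 and 425 and 499, 421 and 487, log2 fold change 0.26, 95% interval -0.25 to 0.77). Ldha stood at 2109, 1698 and 1922 and 3301, 2441 and 2553 CPM and was not called (log2 fold change 0.53, 95% interval 0.05 to 1.02), though its libraries did not overlap. It was called higher with DESeq2 (0.53, DESeq2 adjusted p = 0.0434). The same held with the 12 LPS and LPS + LPS libraries alone (0.56, edgeR adjusted p = 0.0349).

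Genes of the pathway of the oxygen-sensing factor HIF1, its targets and regulators, were higher in 12 of 16 cases, with 3 lower and 1 kept (median 1.02, also with the gene without LPS counts held at its bound). Ankrd37 went from 1.34, 2.13 and 0.909 to 28.1, 25.6 and 24.6 CPM (log2 fold change 4.15, SE 0.43, adjusted p = 7.3e-07). Bnip3l, a receptor for the removal of mitochondria, went from 24.1, 21.1 and 30.2 to 89.2, 78.9 and 101.2 CPM (log2 fold change 1.84, SE 0.18, adjusted p = 2.8e-07), and the prolyl hydroxylase gene Egln3 from 9.55, 3.45 and 6.49 to 28, 24.9 and 38.1 (log2 fold change 2.22, SE 0.39, adjusted p = 0.00023). Car9, a carbonic anhydrase, had no count in LPS and 163 in LPS + LPS, at least 37.2-fold higher against a floor of 3 counts over the group. Hif1a itself fell (1258, 1192 and 1047 against 751, 718 and 671 CPM, -0.71), a call lost without replicate 1 or 2 of LPS (edgeR adjusted p = 0.0542 and 0.0525) and near 0 with library size alone (-0.06). Adm, a vasodilator peptide, fell from 28.2, 61.4 and 58.3 to 4.92, 6.07 and 16.4 CPM. The core of the hypoxia response element, ACGTG, was in 12 of 13 promoters of this list (92.3%). The list names known HIF1 targets and regulators, so this share describes it and tests nothing. Of all promoters 26.2% held the core, with 26.5% of those of higher genes and 25.9% of those of lower genes. The promoter of Ankrd37 is shown with that core in capitals, 241 and 6 bases before the start.
Ankrd37, chr8:45999801-46000100, minus strand, higher: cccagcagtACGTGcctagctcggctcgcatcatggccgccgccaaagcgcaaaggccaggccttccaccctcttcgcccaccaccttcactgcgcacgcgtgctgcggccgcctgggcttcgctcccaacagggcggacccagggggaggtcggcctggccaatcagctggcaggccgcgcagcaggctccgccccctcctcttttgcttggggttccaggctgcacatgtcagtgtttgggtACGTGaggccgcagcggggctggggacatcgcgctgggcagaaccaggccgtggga
The E-box CACGTG contains the same 5 letters and was in 10.3% of all promoters, 10% of those of lower and 10.6% of those of higher genes.

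Nuclear-encoded mitochondrial genes were often kept on the TMM scale. Of 27 genes of the TCA cycle 14 were kept, 8 higher and 3 lower, the last being 5 without replicate 1 of LPS + LPS. The higher ones numbered 20 with library size alone. Sdha, a subunit of succinate dehydrogenase, was among the kept (190.3, 195 and 169 and 184, 167 and 190.3 CPM). Of 37 nuclear complex I subunits 18 were kept and 13 higher. The higher ones numbered 8 without any 1 of the LPS libraries, 6 without replicate 3 of LPS + LPS, and 33 with library size alone. Of 78 mitochondrial ribosomal proteins 40 were kept and 27 higher, against 12 kept and 54 higher with library size alone. Transcripts of the mitochondrial genome were lower in 6 of 12 cases and never higher (median -0.93), for example mt-Nd5 (505, 449 and 276 against 193, 149 and 115.8 CPM, -1.43). With library size alone 1 of these 12 was lower. Cytosolic ribosomal protein genes were lower in 27 and kept in 35 of 76 (median -0.50), but with library size alone 0 were lower, 4 higher and the median was 0.15, so their direction depends on the scaling. The count of lower genes also moved with single libraries, in both directions. It was 10, 8 and 29 without replicates 1, 2 and 3 of LPS. Without replicates 1, 2 and 3 of LPS + LPS it was 39, 15 and 6. Within LPS + LPS, replicate 1 had the highest level in 73 of these 76 genes.

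Sterol synthesis genes were higher in 14 of 23 cases, with 1 lower and 5 kept (median 1.03). The higher ones numbered 10 without replicate 3 of LPS, or replicate 1 or 3 of LPS + LPS. They were 9 of 22 with the 6 libraries alone, and 20 with library size alone. Mvd (9.05, 8.01 and 4.91 against 31.2, 36.6 and 45.6 CPM, log2 fold change 2.36, SE 0.22, adjusted p = 2.4e-07), Fdps and Msmo1 rose. Insig1, which retains the sterol-sensing activator SCAP in the endoplasmic reticulum, was the lower one (-1.25), but not with library size alone (edgeR adjusted p = 0.0536). Amino acid transporters were lower in 10 and higher in 5 of 25, with a median of -0.50 that was 0.15 with library size alone. The share of higher members lies near the 18.6% of all genes, and 18% of all genes were lower. The arginine transporter gene Slc7a2 went from 2370, 2793 and 2406 to 914, 647 and 894 CPM (log2 fold change -1.62, SE 0.20, adjusted p = 4.7e-06). Slc7a8, a carrier of large neutral amino acids, went from 165, 168 and 159 to 113, 83.7 and 63.9 (log2 fold change -0.92, SE 0.24, adjusted p = 0.0058), a call lost with library size alone (-0.27, edgeR adjusted p = 0.422). Chaperone and unfolded protein response genes were lower in 13 and kept in 10 of 29, none higher (median -0.60, but 0.05 with library size alone, where 3 were lower and 2 higher). Without replicate 3 of LPS 8 were lower, and without replicate 2 of LPS 6 were kept. Hspa5, the chaperone BiP, went from 3426, 3325 and 4402 to 754, 1101 and 1376 CPM (-1.79). Of 31 autophagy genes 16 were kept, 5 lower and 5 higher, shares of each direction that lie near the background of 18% and 18.6%. Without replicate 2 of LPS 3 were higher, and with library size alone 3 were lower, 20 higher and 4 kept. The mitophagy receptor gene Optn (152, 142 and 171 against 25.6, 33.1 and 29.4 CPM, -2.40) and Sqstm1 fell, that of Sqstm1 not with library size alone (edgeR adjusted p = 0.118), whereas Bnip3l and Wipi1 rose. Of 32 lysosomal genes 16 were kept, 6 lower and 7 higher, against 23%, 18% and 18.6% of all genes.

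Cell cycle genes were higher in 19 of 32 cases, with 3 lower and 3 kept (median 1.89), at low levels. Ccnb1, the mitotic cyclin, stood at 1.3, 0.76 and 2.06 against 19.4, 16.4 and 21.3 CPM (log2 fold change 3.80, SE 0.64, adjusted p = 0.00013) and Cdk1 at 2.47, 1.37 and 1.52 against 8.39, 8.63 and 8.81 (log2 fold change 2.26, SE 0.45, adjusted p = 0.00068). Replication genes differed: Mcm2, Mcm4 and Pcna were kept, and Mcm6 fell. Mki67, the usual marker of cycling cells, was lower (6.9, 17.7 and 17.2 against 7.62, 5.65 and 8.09 CPM, log2 fold change -0.96, SE 0.34, adjusted p = 0.035), with overlapping libraries, and its call was lost without any 1 of 5 libraries, all but replicate 1 of LPS, with edgeR's adjusted p between 0.05 and 0.165.

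The 20 largest falls and 20 largest rises were taken among called genes with a mean of at least 3 on the log2 CPM scale and no overlap between the groups. Of the falls 11 are on the list of interferon-stimulated genes, and beside Cd209a, Il15, Tlr3, Cxcl10 and Ccl24 the others are Slfn9, Trim30c, Ifi208 and BC023105. The rises include the matrix and migration genes Spp1 (osteopontin, 14.6, 9.38 and 13.5 against 131, 207 and 386 CPM, 4.27) and Sdc1 (syndecan-1, 4.20), and the galectin gene Lgals1 (7.35, 5.17 and 6.97 against 125, 96.7 and 119.7, 4.13). They also include the myeloid lectin genes Clec4a2 (3.68, 2.53 and 1.88 against 56.1, 66.3 and 73.6, 4.58) and Clec5a (4.26) and the tetraspan gene Ms4a7 (1.7, 1.22 and 2.55 against 87.4, 66.2 and 162, 5.86). Further rises were those of Rab7b, which moves TLR4 towards lysosomes (4.44, 2.48 and 1.45 against 69.2, 33.6 and 98.6, 4.57), the potassium channel gene Kcnn4 (4.11) and Nr1h3, the oxysterol receptor LXRα (3.18, 2.79 and 7.09 against 57.6, 67.6 and 75.4, 3.95). None of the libraries of these genes overlapped, as the rule for naming them required.

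Zeb1 itself, the targeted gene, had a mean of 2.23 CPM in LPS in Zeb1∆M and 6.77 in Zeb1WT, where it was lower in LPS + LPS (6.41, 6.69 and 7.21 against 0.912, 2.52 and 1.07, log2 fold change -2.18, SE 0.36, adjusted p = 0.00011). These are levels of a few CPM, and the part of a different mix of cells was not tested. The same comparison in Zeb1∆M, in separate mice, gave 2272 lower and 2125 higher genes. Of the 2421 genes lower in Zeb1WT, 2334 had a fold change below 0 in Zeb1∆M and 1723 were called lower there. Of the 2504 higher genes, 2469 lay above 0 and 1615 were called higher. Of the 3087 kept genes, 297 were called lower and 104 higher in Zeb1∆M. A test of the difference between the genotypes called 0 genes (0%) with edgeR, with 939 at an unadjusted p under 0.05, 74 with DESeq2 and 9 with edgeR without replicate 1 of LPS + LPS of Zeb1WT. All 36 interferon-stimulated genes and all 15 guanylate-binding proteins and GTPases were lower in Zeb1∆M too, with medians of -3.5 and -3.22, and the HIF1 list was higher in 12 of 16 there. In Zeb1∆M the log2 fold change was -0.32 for Tnf (adjusted p = 0.20) and 7.36 for Arg1. B cell markers had medians of -2.32 in Zeb1WT and -0.09 in Zeb1∆M, and eosinophil markers of -0.345 and -2.65, though no gene of either list was called in the test of the difference. Ms4a1 (CD20) had log2 fold changes of -3.37 and -0.89, a difference with an adjusted p of 0.069. Its mean in LPS was 43.1 CPM in Zeb1WT and 7.53 in Zeb1∆M.

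**Figure D5:**
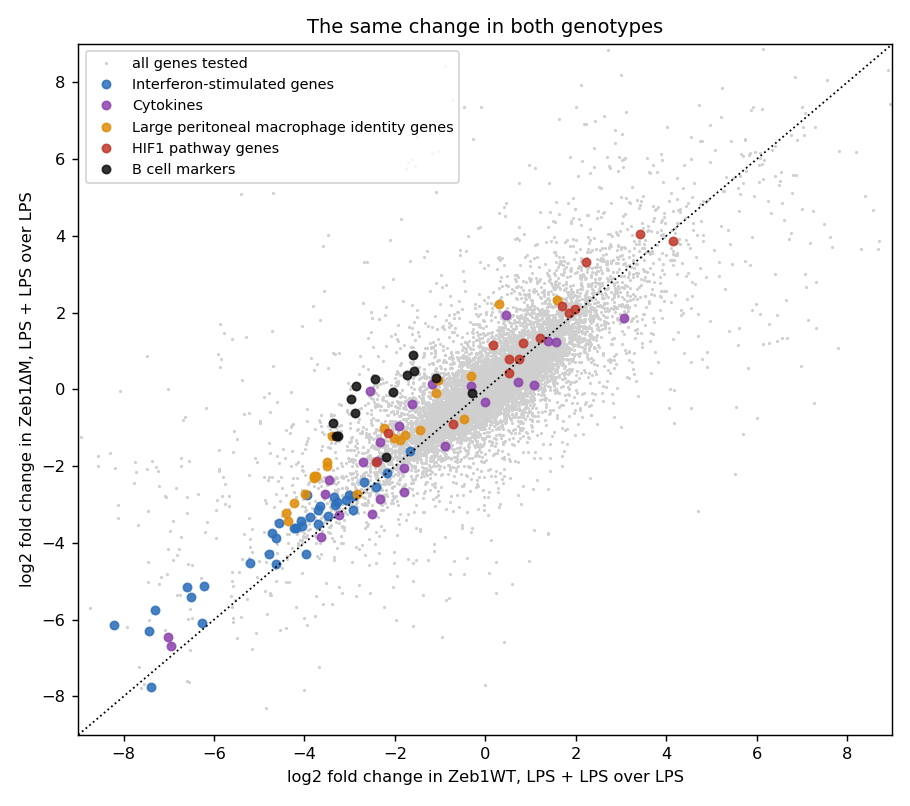
Log2 fold change of LPS + LPS over LPS in Zeb1WT (x axis) and in Zeb1∆M (y axis) for all genes tested (grey) and members of 5 lists, with the line of equal change dotted. Interferon-stimulated genes fall in both genotypes, and the medians of B cell markers are -2.32 and -0.09.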

How the data were processed

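RNA-seq of sorted peritoneal macrophages (TruSeq Stranded mRNA libraries from Trizol RNA) was available as whole-number counts per gene, which the authors deposited as one table of 55573 genes and 18 libraries without normalization. The submitters' processing notes name STAR, RSEM, DESeq2 and the build GRCm38, with no versions; the annotation release is not given in the sources used here. Where RSEM made the counts, reads of near-identical genes (the Ifit, Gbp, H2, Oas and Tgtp families among others) were shared out by estimate, so that single members of these families are uncertain.

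Samples were grouped by their labels. Counts were tested with edgeR 4.0.16 in R 4.3.3 (quasi-likelihood test, TMM factors, filterByExpr, Benjamini-Hochberg adjustment over 13443 genes) in one fit of the means of 6 groups, so that all 18 libraries set the spread. Every adjusted p comes from this test unless another tool is named. A gene was lower or higher at an adjusted p under 0.05, and kept when not called and its 95% interval lay within 1 on the log2 scale. CPM values use TMM-scaled library sizes. A group whose libraries held no count was set to a floor of 3 counts over the group, which covers counting error only. Each library is a pool of mice, and nothing more is said of how far the pools are independent, so the p-values measure the spread between these libraries, which may in part be technical. The functions were tested on simulated counts.

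Genes were named by rule (the 20 largest falls and rises described in the text, up to 6 called members per direction and 4 kept members of each list, and defining members), and other genes were named for their known role after their values were seen. The members and the lists were chosen with earlier results of these data known. Alternatives were DESeq2 1.42.0, other scalings, filters and sets of libraries, a replicate block, each library left out, and, chosen after seeing the data, removal of each library's trend on transcript GC and 3 variants of the genotype test.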

Additional observations from a re-analysis of the deposited data

How the results depend on the processing

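With library size alone 1176 genes were lower, 5337 higher and 1905 kept, and Tlr4 was the one called gene among the named ones that changed sign (log2 fold change 0.0315). Without a filter on low counts 10096 genes were kept of 27409 tested, and with an interval within 1.5-fold 809 were kept. Same-numbered libraries correlated at -0.0605, 0.0572 and -0.0421 in their deviations from the group means, and other pairs at -0.064 to 0.102. With 3 libraries a group this cannot settle whether a replicate number marks a shared batch or litter. A fit with the replicate number as a block gave 1705 lower and 1523 higher genes. Leaving out 1 library at a time gave 2000 to 2408 lower, 2015 to 2257 higher and 2775 to 3026 kept genes. Median-of-ratios factors (2428 lower, 2489 higher), DESeq2 (2640 and 2769), the 6 libraries alone (1942 and 1923), the 12 LPS and LPS + LPS libraries (2319 and 2743) and the removal of a trend on transcript GC (2134 and 2878) stayed within 1.5 times. The test between genotypes called 74 genes with DESeq2 and 9 with edgeR without replicate 1 of LPS + LPS of Zeb1WT, both chosen after seeing the data; the cause was not tested. Over the alternatives that were run on single genes, the called ones among those named kept sign and call in 2261 of 2322 values, and the sign of the uncalled ones turned in 79 of 574. Depth limits what can be said of genes under a few CPM, and 3 libraries a group leave 5431 genes unresolved.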

Other observations

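Antioxidant and glutathione genes went both ways, 8 lower, 3 higher and 8 kept of 29, against 18%, 18.6% and 23% of all genes. Txnrd1, which reduces thioredoxin, changed by -2.28 on the log2 scale, and Gsto1, a glutathione transferase, by -1.16. Gpx1 and Gpx4, which reduce peroxides, rose by 1.00 and 0.70, and the haem oxygenase gene Hmox1 was kept at 0.00. The list median was -0.41 but 0.26 with library size alone.

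Of the amino acid carriers, Slc38a4 had 126 counts in LPS and 0 in LPS + LPS, at least 61.3-fold lower, and Slc6a12, the betaine and GABA transporter, 0 and 171, at least 39-fold higher, both against a floor of 3 counts over the group. In all, 98 genes had no count in LPS and 85 none in LPS + LPS among those with more than 3 counts in the other group.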
